A study of Mus musculus with 18 samples.

Results

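Border cells are the Lgr5+ cells with an intermediate level of Lgr5 in the intestinal crypt. They were taken here from the small intestine (SI) and the large intestine (LI), and chosen as the libraries whose labels give a medium GFP sort: 6 of the 18 libraries of the series, 3 from the SI and 3 from the LI. Every library came from untreated Lgr5-eGFP-IRES-CreERT2 mice, a knock-in in which the Lgr5 locus drives GFP and a tamoxifen-inducible Cre, aged 8 to 20 weeks by the labels. The cells were Epcam+ and were gated on GFP, with medium GFP standing for the border, high GFP for the crypt centre and low GFP for cells beyond row 3 (row >3), and at least 270 pg of RNA went into each stranded library, read as 100 nt paired ends. The labels give each library a replicate number but not its mouse, and p-values therefore measure the spread between libraries.

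Lgr5 is a receptor for R-spondins, secreted proteins that raise Wnt signalling, and it marks the stem cells at the crypt base. In the SI these cells sit among Paneth cells, which secrete lysozyme and defensins, and their offspring move up onto villi that absorb lipids, sterols, sugars and peptides. The LI has no villi and normally no Paneth cells, and its surface cells mainly recover salt and water. The comparison of the sites within border cells asks which genes differ between them in cells sorted for medium GFP. In these bulk libraries, fewer cells of a type and less RNA per cell cannot be told apart.

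The SI border libraries held 8312093, 14340229 and 21692974 counts and those of the LI 21430613, 15312877 and 25788950. Levels below are the authors' normalised counts, listed in the order of replicates 1, 2 and 3, and are compared between libraries and not between genes. Lgr5 followed the sort in the means: 3959 ± 1423 (SD, n = 3) in SI centre, 1265 ± 982.4 in SI border and 159.1 in SI row >3 cells, and 2359, 1451 ± 249 and 287.4 in the same gates of the LI. Epcam, the epithelial surface protein used for the sort, lay between 14654 and 17648 in SI border libraries and between 15902 and 21709 in those of the LI.

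The library labelled SI border replicate 3 stood apart from replicates 1 and 2. Of 36 LI genes, which reached 20 CPM (library-size-scaled counts) in each LI border library and exceeded SI border replicates 1 and 2 by 20-fold or more, the median level in that library was 87.16% of the LI mean, against 1.058% and 1.078% in replicates 1 and 2. Of 31 SI genes defined the other way, it held a median of 12.76% of the mean of replicates 1 and 2, while the LI border libraries held 0.02728% to 0.0405%. Lgr5 itself was at 1610.3, 2028 and 157 in the SI border libraries. Mitochondrial genes took 17.41%, 19.76% and 30.23% of their counts and 24.73% to 24.85% in the LI. The SI libraries of replicate 3 at the other GFP levels stood apart too: for the same 36 LI genes, row >3 replicate 3 had a median of 94.36% and centre replicate 3 one of 52.44%, against 0.544% to 2.232% in their replicates 1 and 2. For the 31 SI genes they held 5.007% and 34.55%, and the others 42.96% to 139.7%. The labels were kept. Results are given with and without SI border replicate 3 and, where stated, without all 3 of these SI libraries, a choice made after these values were seen.

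**Figure D1:**
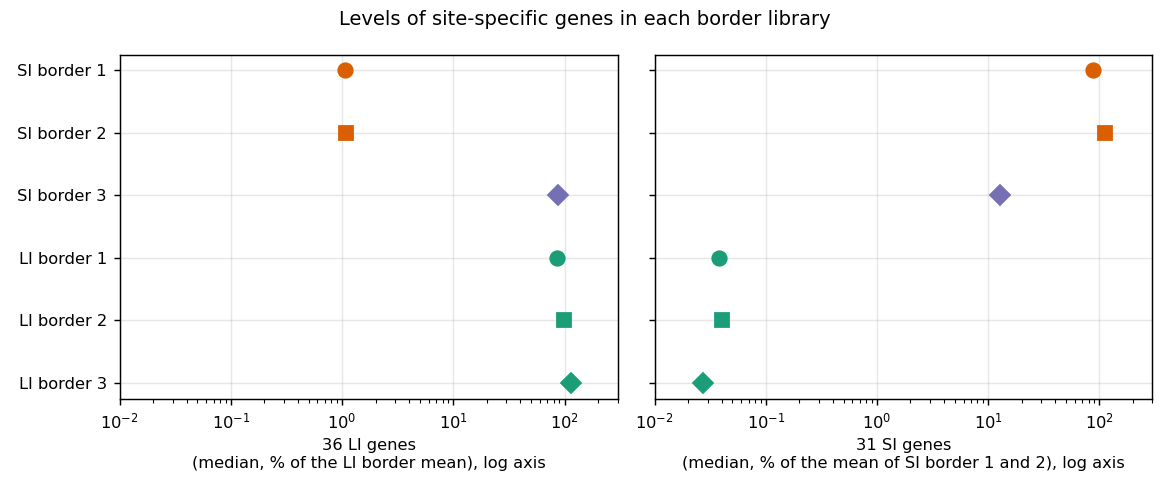
Median level of 36 LI genes (left, in % of the LI border mean) and of 31 SI genes (right, in % of the mean of SI border replicates 1 and 2) in each of the 6 border libraries, on log axes; each point is 1 library. SI border replicate 3 lies at 87.16% for the LI genes, beside the LI libraries, and at 12.76% for the SI genes, between both sites.

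Of 26717 genes tested with edgeR's quasi-likelihood test, 468 differed between SI and LI border cells at an adjusted p under 0.05. Of these, 308 were higher in the SI (1.15% of the genes tested) and 160 were higher in the LI (0.599%). The 3 SI and 3 LI libraries did not overlap for 299 of the 308 and for all 160, against 15% of all genes tested. The calls were made from these same libraries, so this describes the called genes and adds no support. All 3 LI libraries were at 0 for 16 of the genes higher in the SI, and all 3 SI libraries were at 0 for 3 of those higher in the LI.

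Without SI border replicate 3, 863 genes were called, 459 higher in the SI (1.72%) and 404 higher in the LI (1.52%). Of the 468 genes, 374 were called in both fits and 94 only with the library. Another 489 were called only without it. The fit without SI border replicate 3 still drew its estimate of spread from all 6 groups, SI centre and row >3 replicate 3 included. A gene not called in it can therefore still lie far apart between the border libraries. When all SI libraries of replicate 3 were left out, at every GFP level, 968 genes were higher in the SI (3.7%) and 1153 in the LI (4.4%). With the replicate number as a block and all libraries, 1141 genes were called, 615 higher in the SI (2.3%) and 526 in the LI (1.97%).

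**Figure D2:**
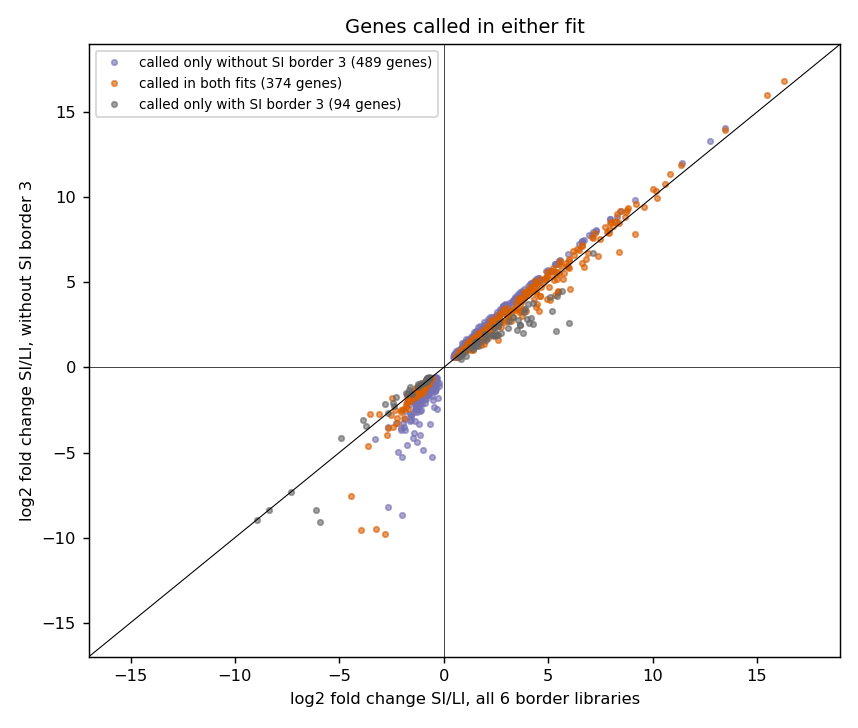
Fitted log2 fold change (SI over LI border) of every gene called in either fit, with all 6 border libraries (horizontal axis) and without SI border replicate 3 (vertical axis); each point is 1 gene and the line marks equal values. The 374 genes called in both fits lie near the line, and the 489 called only without the library reach values far from 0 that the fit with it does not give; folds of genes with a site at 0 depend on the fit's prior count.

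Several genes of sterol handling were higher in SI border cells. Of 9 genes of sterol and conjugate export and uptake, 5 were higher in SI border cells and none higher in the LI, with and without SI border replicate 3, against 1.15% of all genes. The count of 5 was the same whichever border library was left out, and without all SI libraries of replicate 3 another of the 9 was higher in the LI. The median log2 fold change over the 9 was 4.67, with 0 over all genes. Abcg5, a transporter that pairs with Abcg8 to pump sterols back into the lumen (chr17:84658234-84683011, minus strand, GRCm38), had 416, 419 and 424 normalised counts in the SI and 0, 0 and 3.72 in the LI. All SI libraries, the one labelled replicate 3 included, lay at nearly the same level, and no LI library came near them. The log2 fold change was 7.93 ± 0.63 (SE, adjusted p = 1.9e-09).

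Abcg8, its partner (chr17:84676302-84700333, plus strand), had 399, 372 and 331 in the SI and 0, 1.25 and 3.72 in the LI (log2 fold change 7.48 ± 0.78, adjusted p = 6.8e-06). The genes overlap head to head, and whether counting used strand is not given in the sources used here. Reads in the overlap therefore cannot be assigned. Abcc2, an exporter of conjugated bilirubin and drugs, lay at 639.9, 612 and 675 in the SI and at 2.75, 8.73 and 16.4 in the LI (5.96 ± 0.47, adjusted p = 1.5e-07). Soat2, which esterifies cholesterol for packing into lipoproteins, had 482, 342 and 331 against 23.8, 9.98 and 8.93 (4.67 ± 0.42, adjusted p = 7e-07). For Npc1l1, the importer of dietary cholesterol, the SI libraries held 708, 429 and 729, while the LI libraries held 0, 0 and 23.1 (5.99 ± 0.71, adjusted p = 6.8e-05). The log2 fold changes of Npc1l1 and Abcg5 rest on LI border replicate 3, their only LI library above 0. The fitted values were 12.31 and 11.74 without it, and such values against libraries at 0 depend on the prior count.

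Promoter sequences of the genes with the smallest adjusted p and a match to a searched motif are printed to show what lies upstream of genes split by site. They are the 250 bases before the transcription start in RefSeq on GRCm38.p6, 5′ to 3′ on the gene's strand. Capitals mark matches on either strand. The motif of HNF4 was searched as CAAAGTCCA. The motif of the Gata factors was searched as AGATAA. That of the CDX factors was searched as TTTATNG, with N any base. Abcg5 is at chr17:84683012-84683261 (minus), Ccl25 at chr8:4349338-4349587 (plus), Bcl2l15 at chr3:103832446-103832695 (plus), Jun at chr4:95052223-95052472 (minus) and Errfi1 at chr4:150853546-150853795 (plus). The first 3 were higher in the SI and the last pair in the LI.
Abcg5: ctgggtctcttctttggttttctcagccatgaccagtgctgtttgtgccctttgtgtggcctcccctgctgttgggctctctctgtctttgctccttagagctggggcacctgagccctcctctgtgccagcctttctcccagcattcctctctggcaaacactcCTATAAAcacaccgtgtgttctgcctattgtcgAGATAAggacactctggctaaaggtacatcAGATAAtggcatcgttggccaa
Ccl25: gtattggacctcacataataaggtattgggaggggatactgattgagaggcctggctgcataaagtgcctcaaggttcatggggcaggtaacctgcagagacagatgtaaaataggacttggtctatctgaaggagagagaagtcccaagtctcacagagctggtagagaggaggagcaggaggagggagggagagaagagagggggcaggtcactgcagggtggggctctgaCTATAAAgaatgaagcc
Bcl2l15: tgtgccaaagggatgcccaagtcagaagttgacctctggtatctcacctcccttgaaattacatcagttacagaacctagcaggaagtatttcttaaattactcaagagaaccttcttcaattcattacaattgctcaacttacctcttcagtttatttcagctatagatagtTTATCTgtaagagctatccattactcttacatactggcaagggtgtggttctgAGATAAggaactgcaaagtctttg
Jun: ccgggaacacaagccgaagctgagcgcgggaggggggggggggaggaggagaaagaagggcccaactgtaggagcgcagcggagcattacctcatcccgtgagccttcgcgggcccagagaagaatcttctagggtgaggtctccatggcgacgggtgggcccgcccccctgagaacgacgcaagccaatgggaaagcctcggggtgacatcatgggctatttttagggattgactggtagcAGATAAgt
Errfi1: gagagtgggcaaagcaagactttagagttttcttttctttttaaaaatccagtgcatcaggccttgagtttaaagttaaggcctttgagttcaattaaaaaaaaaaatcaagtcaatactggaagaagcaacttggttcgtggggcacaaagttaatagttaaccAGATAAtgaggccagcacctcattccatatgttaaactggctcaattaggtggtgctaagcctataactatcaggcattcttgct

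Of the 12 named genes per direction, 10 had a promoter in the table, and 4 of those higher in the SI and 2 of those higher in the LI held any match. Abcg5 and Bcl2l15 each held 2 matches to the Gata motif, and Abcg5 and Ccl25 held 1 to the CDX motif. Over 306 promoters of 225 matched genes higher in the SI, the Gata motif was in 13.1%, the CDX motif in 13.7% and the HNF4 motif in 2.29%. In the 149 promoters of 123 matched genes higher in the LI the shares were 9.4%, 6.04% and 0.0%. All 18437 promoters of genes tested gave 6.96%, 7.19% and 0.401%. These letter matches are a description of the windows and not of binding.

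Some genes that load dietary fat into lipoproteins were also higher in SI border cells. Of 20 lipid absorption genes, 6 were higher in the SI, against 1.15% of all genes, and none in the LI, with and without SI border replicate 3, and 4 to 6 when any other border library was left out (4 without LI border replicate 2). The counts were 7 and 2 without all SI libraries of replicate 3 (3.7% and 4.4% of all genes). Fabp1, a fatty acid carrier of the cytoplasm, had 937, 238 and 602 normalised counts in the SI and 25.7, 23.7 and 26.8 in the LI (log2 fold change 4.44 ± 0.57, adjusted p = 0.000135). Mttp, which lipidates nascent lipoproteins, had 1015, 883 and 1668 against 68.8, 106 and 106 (3.61 ± 0.41, adjusted p = 0.000136). The SI levels of both varied from library to library, while the LI levels of Fabp1 were nearly flat.

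Dgat1, the enzyme of the last step of triglyceride synthesis, changed less, with 557, 585 and 1175 in the SI and 195, 228 and 220.3 in the LI (1.81 ± 0.28, adjusted p = 0.000969). The apolipoproteins Apoa1 and Apoa4 had 4205, 1427 and 3809 and 1462, 765 and 595 in the SI. In the LI, Apoa1 was at 10.1, 3.74 and 139 and Apoa4 at 0, 0 and 34.2. Their log2 fold changes were 5.74 ± 0.95 (adjusted p = 0.00359) and 6.02 ± 0.93 (adjusted p = 0.0153). LI border replicate 3 was the highest LI library for both, and still below every SI library. Without it their log2 fold changes were 8.68 and 12.88. Apoc2, a cofactor of lipoprotein lipase, was the sixth (4.04 ± 1.0, adjusted p = 0.0318). Its call was kept only without SI border replicate 3 when border libraries were left out in turn (adjusted p = 0.07546 to 0.2237 in the other 5 fits). The median over all 20 was 0.65, so the group as a whole did not move by much.

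Of 8 bile acid genes, Fabp6 alone was higher in the SI, against 1.15% of all genes. Fabp6, the ileal carrier of bile acids, had 928, 262 and 4007 in the SI and 0, 6.24 and 8.19 in the LI (8.39 ± 1.344, adjusted p = 0.00467). Slc10a2, the ileal importer of bile acids, had 26.0, 42.8 and 250.4 against 5.50, 22.5 and 17.9 and did not pass (adjusted p = 0.171). For both, the library labelled SI border replicate 3 was the highest of the 6, and 7 of the 8 genes were higher in it than in either other SI library.

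Uptake of peptides and amino acids gave the largest count in an absorptive group: 10 of 16 genes were higher in SI border cells (1.15% of all genes) and none in the LI, and 7 of 16 without SI border replicate 3 (1.72%). The count was 7 and 10 without SI border replicates 1 and 2, and 5, 5 and 8 without those of the LI. Slc1a1, a glutamate transporter, was the most even, with 595, 722 and 525 in the SI and 110.1, 111 and 106 in the LI (2.43 ± 0.30, adjusted p = 7.3e-05). Slc15a1, the brush border importer of small peptides, had 264, 153 and 288 against 0.917, 0 and 11.9 (5.42 ± 0.90, adjusted p = 0.00308). Slc7a9, a subunit of a cystine transporter, had 149, 132 and 513 against 0, 1.25 and 13.4 (5.49 ± 0.86, adjusted p = 0.0029). Without LI border replicate 3 the log2 fold changes of Slc15a1 and Slc7a9 were 8.47 and 8.69. The SI and LI libraries did not overlap for any of these 3 genes. Enpep, a membrane aminopeptidase, had 923, 565 and 2573 against 34.9, 28.7 and 59.6 (4.96 ± 0.73, adjusted p = 0.0046). Slc6a19, a transporter of neutral amino acids, had 241, 36.3 and 231 against 0, 2.495 and 25.3. Its adjusted p was 0.0331 with all libraries and 0.0868 without the library labelled SI border replicate 3. It was also 0.1033 without SI border replicate 1, and 0.1063 and 0.1454 without LI border replicates 1 and 2. The log2 fold change of Slc6a19 was 3.88 with all libraries and 7.10 without LI border replicate 3.

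Among sugar digestion genes, 2 of 12 were higher in the SI (1.15% of all genes) and none in the LI. Without SI border replicate 3, 3 of 12 were higher in the SI (1.72% of all genes). Leaving out any of the LI border libraries ended both calls (adjusted p = 0.0758 to 0.0965 for Sis), and leaving out SI border replicate 1 ended that of Tkfc. Sis, sucrase-isomaltase, had 607, 451 and 2150.2 in the SI and 6.42, 32.4 and 38.0 in the LI (5.33 ± 1.02, adjusted p = 0.0213). Tkfc, which phosphorylates the glyceraldehyde made from fructose and is listed as Dak in the table, had 663, 588 and 621 against 248, 256 and 311 (1.13 ± 0.25, adjusted p = 0.0216). Mgam, maltase-glucoamylase, had 16070.2, 21689 and 9251 against 7322, 7471 and 7594 and passed only without SI border replicate 3 (adjusted p = 0.0331, with it 0.143). Its level in that library was the lowest of the SI, whereas that of Sis was the highest. Of 12 genes of iron, calcium and vitamin uptake, Amn, part of the ileal receptor for cobalamin, was higher in the SI, against 1.15% of all genes (144, 242 and 263 against 29.3, 53.6 and 61.0, adjusted p = 0.0163, lost without any of the LI libraries). Its partner Cubn (569, 108 and 1389.6 against 37.6, 21.2 and 52.1, adjusted p = 0.142) was not called. With the replicate block, 2 of these 12 genes were higher in the SI and 1 in the LI (2.3% and 1.97% of all genes).

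Outside the absorptive groups, the SI-higher genes with the smallest adjusted p included a chemokine and several cell regulators. Ccl25, which draws lymphocytes to the SI, had 1547, 1958 and 1969 in the SI and 185, 251 and 187 in the LI (3.08 ± 0.25, adjusted p = 2.4e-07). The gene overlaps Elavl1 on the other strand. Bcl2l15, of the Bcl2 family, had 236, 316 and 209 against 0, 0 and 1.49 (adjusted p = 7e-07). From 543 against 2 counts the ratio was 409.4, with a 95% exact interval of 112.8 to 3389 that covers counting error only. Rragd, a Rag GTPase of amino acid sensing, had 404, 518 and 117 against 1.83, 0 and 0 (adjusted p = 8.2e-06, ratio 514.2 with an interval of 141.8 to 4254). Its level in SI border replicate 3 was below the other two and still far above the LI.

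Atp7b, a copper exporter, had 201, 137 and 173 against 1.83, 3.74 and 4.47 (5.52 ± 0.61, adjusted p = 8.5e-06). Gcnt2, which branches the I antigen glycan, had 255, 179 and 341 against 0.917, 14.97 and 8.19 (5.03 ± 0.59, adjusted p = 1.9e-05). Dnah6, an axonemal dynein chain, had 288, 44.1 and 190.4 against 0, 2.495 and 1.49 (6.89 ± 0.95, adjusted p = 6.8e-05). SI border replicate 2 was the lowest SI library for all 3. All 12 of the top SI-higher genes, Abcg5, Abcc2, Ccl25, Bcl2l15, Soat2, Abcg8, Rragd, Atp7b, Gata4, Gcnt2, Npc1l1 and Dnah6, were called in each of the 6 fits that left out 1 border library. They, and the 12 LI-higher genes below, were named under a rule that required the SI and LI libraries not to overlap.

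**Figure D3:**
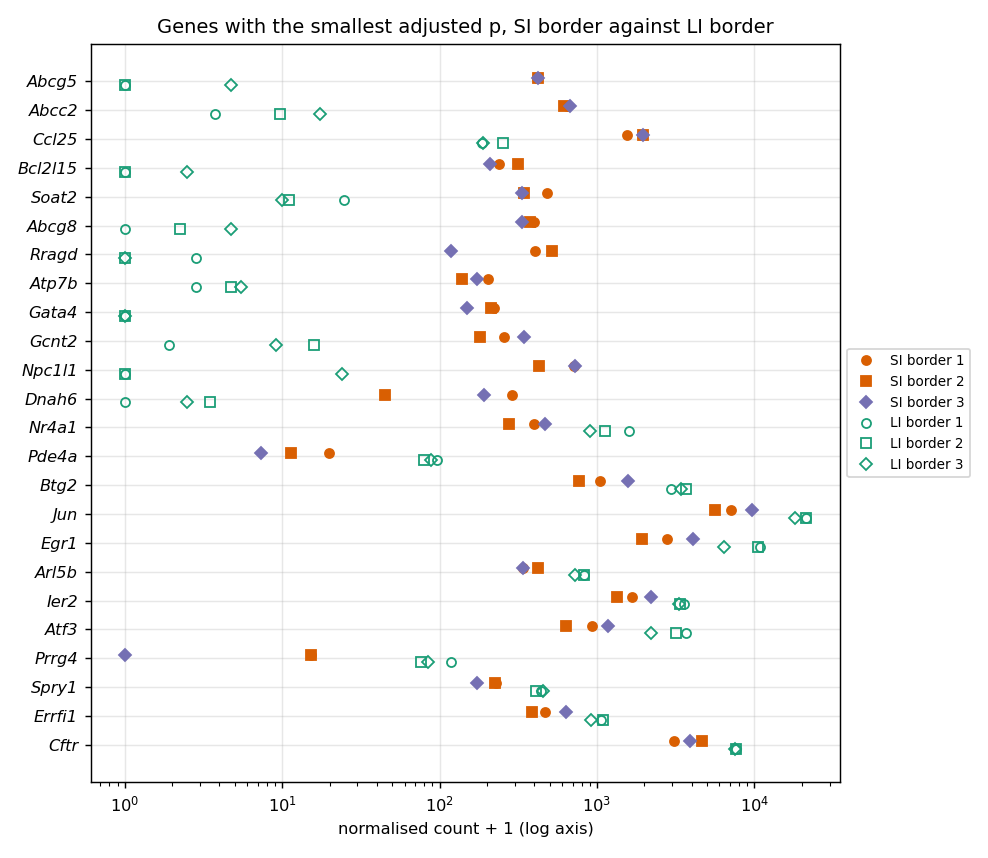
Normalised count + 1 (log axis) of the 12 genes per direction with the smallest adjusted p among named genes whose SI and LI border libraries do not overlap; each point is 1 library, filled for the SI and open for the LI. Among the upper genes, Abcg5 lies at 0 to 3.72 in the LI and Ccl25 at 185 to 251, while among the lower genes Jun lies at 5648 to 9624 in the SI and 18112 to 21348 in the LI and Prrg4 at 0 to 14.3 and 74.9 to 116.

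Among 17 transcription factors with regional roles in the gut, 4 were higher in SI border cells, against 1.15% of all genes, and none in the LI. Gata4 and Gata5 were called whichever border library was left out. Gata4, a factor of the proximal SI (chr14:63198922-63271692, minus strand), had 219.6, 210.0 and 148 in the SI and 0 in every LI library. Taking 3 counts over the LI libraries as the limit that a count of 0 allows, the level was at least 207.7-fold higher in the SI (adjusted p = 1.3e-05). Its relative Gata5 had 1129, 982 and 679 against 26.6, 58.6 and 17.1 (4.78 ± 0.60, adjusted p = 0.000712). The library labelled SI border replicate 3 was the lowest SI library for both factors.

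Maf, a leucine zipper factor, had 519, 184 and 1298 against 4.59, 20.0 and 19.4 (5.47 ± 0.93, adjusted p = 0.0108), and Creb3l3, a regulator of lipid genes, 208, 58.3 and 219.9 against 22.9, 3.74 and 7.44 (3.71 ± 0.78, adjusted p = 0.0153). Leaving out border libraries in turn kept 3 of 6 calls for Maf and 3 of 6 for Creb3l3, and Maf lost its call without any of the LI libraries. Hnf4a, a factor of both sites, had 12271, 10912 and 10948 against 9774, 8620.0 and 8274, a log2 fold change of 0.29 ± 0.14 (adjusted p = 0.336). Cdx2, which sets intestinal identity along the gut, had 1967, 1708 and 3670.3 in the SI and 3809.7, 3331 and 3581 in the LI. Its adjusted p was 0.478 with all libraries, 0.0850 without SI border replicate 3 and 0.000146 without all SI libraries of replicate 3, where 3 of the 17 factors were higher in the LI, against 4.4% of all genes.

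Hox genes, which encode position along the body axis, were called higher in the LI in few cases both with SI border replicate 3 and without it. Of 33 tested, Hoxa11 alone was called, against 0.599% of all genes higher in the LI. Hoxa11 had 0, 0 and 1.05 in the SI and 52.3, 36.2 and 29.0 in the LI (adjusted p = 0.0319, and 0.0584 to 0.1016 when any border library was left out). From 125 against 1 counts the LI level was 82.9 times that of the SI, with a 95% exact interval of 14.61 to 3300. Hoxb7 (144, 226 and 518 against 850.2, 571 and 628) and Hoxb3 (331, 266 and 779.5 against 957, 629 and 619) passed without that library (adjusted p = 0.000552 and 0.0221), while Hoxa11 did not (adjusted p = 0.0584). Hoxa9 had 0, 0 and 562 against 760.3, 604 and 601, and Hoxa10 had 0, 0 and 362 against 363, 397 and 421. For both, SI border replicates 1 and 2 held no count and replicate 3 lay just below the LI range. Without all SI libraries of replicate 3, 13 of the 33 were higher in the LI and none in the SI, against 4.4% and 3.7% of all genes. Hoxa9 was then at least 261-fold higher in LI border cells than in SI border replicates 1 and 2 (adjusted p = 3.9e-10).

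Salt and water transport genes of the colon showed the same dependence. Of 17 genes, none was called higher in the LI with all libraries (0.599% of all genes) or without SI border replicate 3 (1.52%). The latter fit still drew its estimate of spread from SI centre and row >3 replicate 3 too. Without all SI libraries of replicate 3, 13 were, against 4.4% of all genes. Car1, a carbonic anhydrase, had 0, 14.3 and 22796 normalised counts in the SI and 3444, 11448 and 10925 in the LI. Car4, its membrane-bound relative, had 54.3, 66.1 and 2193 against 2010.3, 2319 and 2433, and Hsd11b2, which protects the mineralocorticoid receptor from glucocorticoids, 411, 185 and 3764 against 3436, 3812 and 4249. In each, SI border replicates 1 and 2 were far below the LI and replicate 3 was within or above its range. Leaving out SI border replicate 3 alone gave Car1, Car4 and Hsd11b2 adjusted p-values of 0.213, 0.142 and 0.273. Their adjusted p-values were 1, 0.763 and 0.782 with all libraries and 0.000113, 1e-07 and 6.4e-08 without the replicate 3 libraries of the SI.

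A member of the group went the other way: Slc9a3, the apical sodium-proton exchanger, had 61.4, 32.4 and 179.9 in the SI and 8.25, 9.98 and 4.47 in the LI (3.67 ± 0.85, adjusted p = 0.0267), and 0.169 was its adjusted p without SI border replicate 3. Its call held without SI border replicate 1 or 2 and was lost without any of the LI libraries. Cftr, the chloride channel of crypt secretion, was higher in the LI and among the 12 LI-higher genes with the smallest adjusted p: 3079, 4621 and 3923 against 7644, 7687 and 7560.3 (-1.03 ± 0.19, adjusted p = 0.00644). Its LI libraries were close to each other, and all SI libraries lay below them. Cftr was called in 5 of 6 fits that left out 1 border library.

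Of 31 genes of xenobiotic metabolism, Gstp1 was higher in the LI, and none was higher in the SI, against 0.599% and 1.15% of all genes. Gstp1, a glutathione transferase, had 418, 302 and 502 against 679, 1085 and 1071 (-1.27 ± 0.30, adjusted p = 0.0306). It was called without SI border replicate 3 or LI border replicate 1 and not without any of the other libraries (adjusted p = 0.1181 to 0.1476). Without SI border replicate 3, Gsta4, of the same enzyme class (172, 77.8 and 598 against 779, 837 and 854; adjusted p = 0.0369), and Ugt2b34, a glucuronosyltransferase (841, 1319 and 3519 against 3092, 4331 and 4800.0; adjusted p = 0.0271), joined it. Sult1a1, a sulfotransferase, had 16.5, 84.2 and 9616 against 8246, 10122 and 10385 (adjusted p = 0.884). For 29 of the 31 genes the level in the library labelled SI border replicate 3 was above both other SI libraries. Without all SI libraries of replicate 3, 13 of the 31 were higher in the LI, against 4.4% of all genes.

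Of 27 glycosyltransferases, which build mucin and surface glycans, 4 were higher in SI border cells and none in the LI (1.15% and 0.599% of all genes). These counts were 5 and 9 without all SI libraries of replicate 3 (3.7% and 4.4% of all genes). With the replicate block they were 4 and 5 (2.3% and 1.97% of all genes). St3gal4, a sialyltransferase, had 817, 496 and 2579 against 22.0, 22.5 and 38.7 (5.47 ± 0.77, adjusted p = 0.00342), the largest difference of the 4. St3gal6, of the same family, had 442, 288 and 264 against 151, 93.6 and 148 (1.24 ± 0.28, adjusted p = 0.0248), and Galnt6, which starts mucin-type chains, 4203, 3048 and 3045 against 1467, 1701 and 1702 (1.01 ± 0.23, adjusted p = 0.0252). No SI library overlapped the LI in any of the 3. Without any of the LI border libraries only St3gal4 was called, and without SI border replicate 1, 2 of the 4. Gcnt4 was the fourth (1.66 ± 0.34, adjusted p = 0.0132, and 0.0577 without SI border replicate 3). Without that library, Galnt4 was higher in the LI (1599, 1900.1 and 3368 against 3393, 3860.2 and 4938; adjusted p = 0.0172).

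In host defence, 2 of 15 chemokine and secretory defence genes were higher in SI border cells (1.15% of all genes), Ccl25 above and Reg3g. Leaving out all SI libraries of replicate 3, 6 were higher in the SI and 3 in the LI (3.7% and 4.4% of all genes). With the replicate block these counts were 7 and 1 (2.3% and 1.97% of all genes). Reg3g, a lectin that kills Gram-positive bacteria, had 3440.2, 2517 and 1945 in the SI and 7.34, 92.3 and 73.0 in the LI (5.46 ± 0.96, adjusted p = 0.0139). Reg3b, of the same family, had 4406, 2367 and 4369.8 against 9.17, 227 and 140.0 and just missed the threshold (adjusted p = 0.0579). For both, every SI library lay above every LI library. Reg3g was not called without LI border replicate 2 or 3 (adjusted p = 0.0632 and 0.0758). Without SI border replicate 3, Duox2, an epithelial oxidase that makes hydrogen peroxide (3563, 3563 and 929 against 617, 276 and 273), and its maturation factor Duoxa2 (165, 219 and 74.7 against 32.1, 28.7 and 45.4) were higher in the SI, each with an adjusted p of 0.0332. Ccl28, a chemokine for plasma cells, was then higher in the LI (536, 836 and 861 against 1242, 1118 and 1301; adjusted p = 0.0418).

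Of 19 microbial sensors, Tlr4, the receptor for lipopolysaccharide, was higher in LI border cells, with 7.08, 11.7 and 14.7 in the SI and 53.2, 57.4 and 85.6 in the LI (-2.51 ± 0.49, adjusted p = 0.00855, and 0.0140 without SI border replicate 3, but 0.0695 without LI border replicate 3). Its groups did not overlap and all 3 SI libraries were low. With all libraries no other of the 19 was called, against 0.599% of all genes higher in the LI. Without all SI libraries of replicate 3, 4 of the 19 were higher in the LI and 2 in the SI (4.4% and 3.7% of all genes). With the replicate block 1 was higher in the LI and 1 in the SI. Tlr5, the flagellin receptor, had 9.44, 45.4 and 245 against 264, 165 and 168 and was not called (adjusted p = 0.834). Of 13 claudins and junction genes none was called with all libraries, and Cldn8, a barrier claudin, was higher in the LI without SI border replicate 3 (21.3, 12.96 and 53.6 against 110.1, 145 and 186; adjusted p = 0.0301).

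Of 9 genes of antigen presentation by MHC class II, 3 were higher in SI border cells with all libraries (1.15% of all genes) and 6 without SI border replicate 3 (1.72%), with medians of 4.58 and 4.997 on the log2 scale. It was 7 of 9 without all SI libraries of replicate 3 and with the replicate block (3.7% and 2.3% of all genes). Ciita, the master activator of the class, had 956, 1253 and 307 in the SI and 49.5, 6.24 and 18.6 in the LI (4.95 ± 0.95, adjusted p = 0.0209). H2-Aa, a class II chain, had 1020.0, 1651 and 164 against 44.9, 2.495 and 23.8 (5.15 ± 1.09, adjusted p = 0.0310), and H2-DMa, which helps to load peptides and overlaps the expressed gene Brd2, 215, 362 and 84.2 against 1.83, 16.2 and 21.6 (3.94 ± 0.82, adjusted p = 0.0214). In all 3, SI border replicate 3 was the lowest SI library and was still above every LI library. None of the 9 genes was called when any other border library was left out (for Ciita, adjusted p = 0.0508 to 0.1226). Cd74, the invariant chain, had 6075, 9497 and 1267 against 438, 38.7 and 143, with an adjusted p of 0.0856 with that library and 0.0473 without it. H2-Ab1 and H2-Eb1 behaved likewise (adjusted p = 0.0735 and 0.0633 with it, 0.0450 and 0.0269 without it). Markers of immune cells, which also carry these genes, summed to 590.3, 221.6 and 389.2 in the SI and 311.8, 92.33 and 183.9 in the LI. Of the 13 immune markers, 9, 9 and 12 were at 0 in the SI libraries and 6, 10 and 5 in those of the LI, and none was called.

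Of 22 crypt base and Wnt target genes, Olfm4 was called with all libraries, against 1.15% of all genes higher in the SI. Without SI border replicate 3, 6 of the 22 were higher in the SI, against 1.72% of all genes. In the fit without all SI libraries of replicate 3, 8 were higher in the SI and 1 in the LI (3.7% and 4.4% of all genes). Olfm4, a glycoprotein secreted by SI stem cells, had 24346, 54428 and 1029.9 normalised counts in the SI and 14.7, 17.5 and 0 in the LI (11.35 ± 2.03, adjusted p = 0.0145). Even its lowest SI library lay far above the LI. The adjusted p was 0.0575 to 0.097 without any of the LI libraries. Without SI border replicate 3, 5 more were higher in the SI: Axin2, a feedback inhibitor of Wnt signalling (9296, 10536 and 1535 against 2834, 2069.8 and 1991; adjusted p = 0.0153), Rnf43, which removes Wnt receptors (4432, 4876 and 1627 against 2885, 1985 and 1969.7; adjusted p = 0.0135), Msi1, an RNA-binding protein of progenitors (1521, 1673 and 261 against 381, 288 and 243; adjusted p = 0.0139), Tnfrsf19 (383, 644 and 2.10 against 72.5, 42.4 and 35.0; adjusted p = 0.0149) and Lef1, a Wnt effector (11.8, 59.6 and 0 against 5.50, 4.99 and 0.744; adjusted p = 0.0293). With it, their adjusted p-values were 0.231, 0.364, 0.174, 0.269 and 0.1996. In 4 of these 5 the library labelled SI border replicate 3 was below every LI library, and for Msi1 it was within their range.

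Lgr5 had 1610.3, 2028 and 157 in the SI and 1676, 1492 and 1184 in the LI, a log2 fold change of -0.28 ± 0.75 (adjusted p = 0.989) with all libraries and 0.25 ± 0.59 (adjusted p = 0.969) without SI border replicate 3. These errors leave room for a difference of more than 1 on the log2 scale. Sox9, a factor of crypt progenitors, had 5140.3, 4621 and 3526 against 4568, 4425 and 5121 (-0.16 ± 0.15, adjusted p = 0.778). Smoc2, a matricellular stem cell gene, had 2852, 4043 and 308 against 984, 1059 and 1057, and passed only without all SI libraries of replicate 3 (adjusted p = 3.7e-06). Cd44, a hyaluronan receptor and Wnt target, had 1910.2, 3765 and 3359 against 7626, 8857 and 7360.1, all SI libraries below all of the LI, with an adjusted p of 0.0782 (0.0980 without SI border replicate 3). Ascl2, the factor that holds the stem cell program, had 137, 166 and 46.3 against 198, 217 and 263 (adjusted p = 0.225).

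Of 18 Wnt and R-spondin receptors, the Frizzled receptors Fzd1 and Fzd3 were higher in LI border cells, against 0.599% of all genes. Without all SI libraries of replicate 3, 3 of the 18 were higher in the LI and 2 in the SI (4.4% and 3.7% of all genes). Fzd1 had 82.6, 114 and 167 in the SI and 368, 321 and 304 in the LI (-1.45 ± 0.35, adjusted p = 0.0319), and remained so without SI border replicate 3 (adjusted p = 0.0149). Fzd3 had 23.6, 42.8 and 7.36 against 140.3, 78.6 and 115 (-2.29 ± 0.52, adjusted p = 0.0241, and 0.0816 without that library). The groups did not overlap for either. Fzd1 was not called without any other border library (adjusted p = 0.0813 to 0.1546), and Fzd3 was called without SI border replicate 2 or LI border replicate 2. Of 14 integrins, Itga1, a collagen receptor subunit, was higher in the SI, against 1.15% of all genes (434, 756 and 284 against 114, 178 and 229, adjusted p = 0.0448). Of the fits that leave out 1 border library, its call was kept only without SI border replicate 3. None of the 16 Eph receptors and ephrins, which position cells along the crypt, was called in any of the 3 fits. Ephb2 had 3436, 3966 and 3544 against 5206, 4097 and 3777 (-0.31 ± 0.14, adjusted p = 0.299).

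Most Paneth cell markers were higher in SI border cells. Of 10 markers 6 were called, against 1.15% of all genes, and 8 without SI border replicate 3. Without SI border replicate 1 or any of the LI libraries 3 were called, and without SI border replicate 2, 5. Their summed level was 89330, 160400 and 13650 in the SI and 48.61, 43.67 and 182.4 in the LI, where 6 to 7 of the 10 were at 0. Lyz1, lysozyme, had 19706, 38744 and 2052 against 0, 0 and 0.744 (adjusted p = 0.0193), and Defa24, a defensin, 27732, 48005 and 4904 against 6.42, 0 and 0 (13.45 ± 1.66, adjusted p = 0.000288). Mmp7, the protease that activates defensins, had 3270.2, 2674 and 249 against 0, 14.97 and 0.744 (8.83 ± 1.46, adjusted p = 0.00359), and Itln1, a lectin, 20549, 31568 and 3547 against 33.9, 9.98 and 7.44 (10 ± 1.42, adjusted p = 0.00327). The fitted log2 fold change of Defa24 was 17.74 without LI border replicate 1 and that of Mmp7 11.85 without LI border replicate 2, the libraries that held most of their LI counts. Ang4, an angiogenin, had 878, 2400.4 and 264 against 2.75, 18.7 and 173 and was not called. In none of the 10 markers was the library labelled SI border replicate 3 above both other SI libraries. Defensins are near-identical copies, so the split of reads among them is uncertain. The share of Paneth cells in the sorted SI cells was not tested.

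None of the 11 goblet, 14 enteroendocrine, 10 tuft, 13 immune or 9 stromal markers was called with all libraries or without SI border replicate 3. Without all SI libraries of replicate 3, 5 of the 10 tuft markers were higher in the SI (3.7% of all genes). In that fit 2 goblet markers and 1 enteroendocrine marker were higher in the LI (4.4% of all genes). Goblet and deep crypt secretory markers summed to 202300, 96570 and 316900 in the SI and 229700, 230200 and 337200 in the LI, tuft markers to 19950, 6215 and 9190 and 6660, 4278 and 4161, enteroendocrine markers to 6895, 6361 and 1199 and 1090, 4080 and 4139. SI border replicate 1 was the highest library for tuft markers, and the sites overlapped in all 3 sums. Stromal markers stayed at 63.12 to 210.1 in the SI and 64.88 to 379.7 in the LI. Of 7 epithelial identity markers, Krt20, a keratin of mature cells, was higher in the SI, against 1.15% of all genes (3145, 1649 and 5913 against 231, 792 and 768, 2.52 ± 0.53, adjusted p = 0.0304). Its adjusted p was 0.0548 without SI border replicate 3 and 0.0592 to 0.0933 without SI border replicate 1 or any of the LI libraries. Dependence of the differences above on the share of mature cells in each sort was not tested. With the replicate block, more of all genes were called, 2.3% higher in the SI and 1.97% in the LI. Counts of several groups described above were larger as well. Higher in the SI were 7 of the 20 lipid genes, 11 of the 16 peptide genes, 8 of the 10 Paneth markers and 1 of the 10 tuft markers. So were 4 of the 12 sugar genes, 2 of the 8 bile acid genes, 2 of the 14 integrins and 2 of the 7 epithelial markers. In that fit 3 of the 31 xenobiotic genes were higher in the SI and 2 in the LI, 2 of the 22 crypt base and Wnt target genes were higher in the SI and 1 in the LI, and 2 of the 33 Hox genes and 1 of the 13 claudins and junction genes were higher in the LI.

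Most of the immediate-early genes were higher in LI border cells. These genes are transcribed within minutes of a growth factor or stress signal. Of 17, 12 were higher in LI border cells and none in the SI, against 0.599% of all genes. The count was the same without SI border replicate 3 (1.52% of all genes) and without all SI libraries of replicate 3 (4.4%). It was 6 and 7 without SI border replicates 1 and 2, and 8, 6 and 8 without LI border replicates 1, 2 and 3, with none higher in the SI in any of these fits. The median log2 fold change was -1.51. Jun, a subunit of the AP-1 factor (chr4:95049034-95052222, minus strand), had 7065, 5648 and 9624 in the SI and 21348, 21178 and 18112 in the LI (-1.50 ± 0.23, adjusted p = 0.00174). Fos, its partner, had 2701, 1821 and 4839 against 10541, 11720.3 and 9115 (-1.79 ± 0.33, adjusted p = 0.0121). Every SI library was below every LI library for both genes, with SI border replicate 3 the highest of the SI.

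Nr4a1, an orphan nuclear receptor, had 397, 276 and 469 against 1600.4, 1128 and 904 (-1.72 ± 0.27, adjusted p = 0.00109), the smallest adjusted p of any gene higher in the LI under the naming rule. Egr1, a zinc finger factor, had 2784, 1939 and 4053 against 10926, 10549 and 6396 (-1.72 ± 0.27, adjusted p = 0.00289), and Btg2, an antiproliferative cofactor, 1037, 767 and 1579 against 2949, 3697 and 3415 (-1.62 ± 0.26, adjusted p = 0.00174). Atf3, a stress-induced repressor, had 935, 631 and 1166 against 3676, 3184 and 2189 (-1.78 ± 0.30, adjusted p = 0.00398), and Ier2 had 1669, 1338 and 2201 against 3557, 3379 and 3336 (-1.03 ± 0.18, adjusted p = 0.00291). In all of these SI border replicate 2 was the lowest library. Dusp1, a phosphatase that switches off MAP kinases, had 231, 261 and 929 against 2254, 2463 and 1956 (-2.24 ± 0.46, adjusted p = 0.0251). When border libraries were left out in turn it was called only without SI border replicate 3, the highest SI library (adjusted p = 0.0608 to 0.0885 in the other fits). Fosb, Junb, Zfp36 and Klf6 made up the 12, with log2 fold changes of -1.51 ± 0.32, -1.12 ± 0.25, -1.12 ± 0.25 and -0.98 ± 0.23 and adjusted p-values of 0.0248, 0.0209, 0.0209 and 0.0258. Junb and Dusp1 overlap expressed genes on the genome, Prdx2 and Ergic1.

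The other 5 were not called with all libraries, and not all of them leaned to the LI. With the replicate block Ier3 and Egr2 passed as well (adjusted p = 0.0189 and 2.021e-05), which made 14 of 17. Jund, an AP-1 subunit with steadier expression, had 4531, 3759 and 4671 in the SI and 3908, 3938 and 4196 in the LI (0.04 ± 0.16, adjusted p = 1). Nr4a2 had 257, 193 and 148 against 194, 219.6 and 204 (-0.13 ± 0.33, adjusted p = 0.972). Egr2 had 259.7, 165 and 62.1 against 1325, 1276 and 254 (-2.68 ± 0.83, adjusted p = 0.146), the third LI library lying among those of the SI. Centre and row >3 cells were read in other libraries, SI replicate 3 included, but in the same fit with a shared spread. Whether libraries of the same replicate number share a mouse is not given. Values are set side by side for Jun, Fos, Egr1 and Btg2 only, all called in border cells. In centre cells they were -1.38 for Jun (adjusted p = 0.00291), -2.13 for Fos (0.00354), -1.75 for Egr1 (0.00193) and -1.95 for Btg2 (0.000325). In row >3 cells they were -1.77, -1.51, -1.46 and -1.37 (0.000126, 0.0152, 0.00369 and 0.00269).

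**Figure D4:**
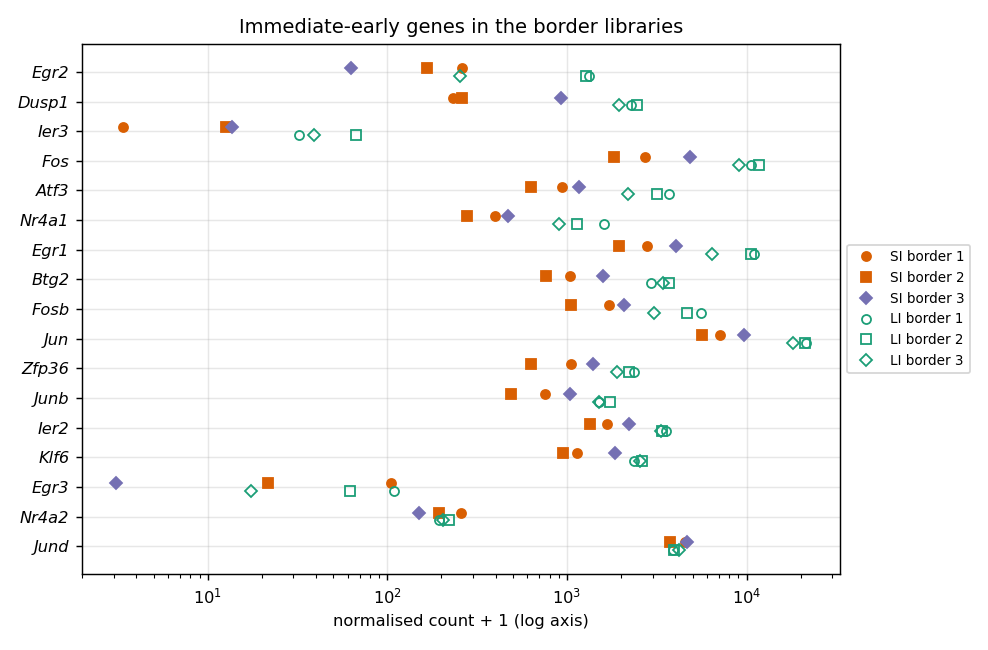
Normalised count + 1 (log axis) of 17 immediate-early genes in the 6 border libraries, ordered by fitted log2 fold change; each point is 1 library, filled for the SI and open for the LI. For 12 genes, such as Dusp1 at 231 to 929 in the SI and 1956 to 2463 in the LI, the LI was higher, while Jund overlaps between the sites.

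Other genes stood among the 12 LI-higher genes with the smallest adjusted p. Pde4a, a cyclic AMP phosphodiesterase, had 18.9, 10.4 and 6.31 in the SI and 95.4, 78.6 and 87.1 in the LI (-3.10 ± 0.49, adjusted p = 0.0011). Arl5b, a small GTPase of the Golgi, had 338, 424 and 339 against 831, 825 and 725 (-1.17 ± 0.20, adjusted p = 0.00289). Prrg4, a membrane protein, had 14.2, 14.3 and 0 against 116, 74.9 and 83.4 (-3.54 ± 0.64, adjusted p = 0.00401). For Pde4a and Arl5b the LI libraries lay close together. Spry1 and Errfi1, feedback inhibitors of receptor tyrosine kinase signalling, had 227, 226 and 173 against 441, 409 and 456 (-1.14 ± 0.21, adjusted p = 0.00528) and 465, 386 and 634 against 1058, 1098 and 916 (-1.10 ± 0.20, adjusted p = 0.00638). Cftr, described above, completes them. Of the 12, all but Cftr were called in each fit that left out 1 border library.

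Leaving out the library labelled SI border replicate 3 brought further genes past the threshold, and by the naming rule 8 per direction are given. With the replicate block and all libraries, 11 of these 16 were called, 5 higher in the SI and 6 in the LI (2.3% and 1.97% of all genes). The 16 were picked from mostly the same libraries, so this count is no separate support. The 8 higher in the SI were Pdgfa, Slc7a2, Rassf5, Rnf157, Tbc1d9, Fam20c, Bmp7 and Hspg2. Pdgfa, a growth factor for stromal cells, had 1093, 1270.2 and 215 in the SI and 289.8, 158 and 180.1 in the LI (without the library 2.41 ± 0.34, adjusted p = 0.000618, with it 0.0823). Bmp7, a ligand of the BMP pathway, had 574, 456 and 108 against 68.8, 79.8 and 73.0 (2.71 ± 0.48, adjusted p = 0.00421, with it 0.0632). Slc7a2, an arginine importer, had 175, 377 and 36.8 against 33.9, 54.9 and 40.9 (adjusted p = 0.00127). For Pdgfa and Slc7a2 the library lay within the LI range, and for Bmp7 it lay just above it. The other 5 had adjusted p-values of 0.00147 to 0.00436 without it.

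Those higher in the LI were Gclm, Rbms1, Hoxb7, Arl4a, Lpcat2, Rrm2, Bdh1 and Paqr4. Gclm, a subunit of the enzyme that starts glutathione synthesis, had 465, 445 and 1165 in the SI and 1647, 1503 and 1874 in the LI (without the library -1.97 ± 0.28, adjusted p = 0.000324, with it 0.0578). Bdh1, an enzyme of ketone body metabolism, had 2559.5, 2605 and 4442 against 4607, 5633 and 5819.9 (-1.14 ± 0.20, adjusted p = 0.00282, with it 0.0591). In both, SI border replicate 3 lay between replicates 1 and 2 and the LI. Arl4a, Rbms1, Lpcat2 and Paqr4 had adjusted p-values of 0.00228, 0.000507, 0.00243 and 0.0029 without it and of 0.180 to 0.217 with it.

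Few cell cycle genes were called between SI and LI border cells. None of 17 S phase genes was called with all libraries, and Rrm2, a subunit of ribonucleotide reductase, was higher in the LI without SI border replicate 3 (510.0, 507 and 948 against 1013, 1064 and 1079; adjusted p = 0.00257). In the fit without all SI libraries of replicate 3, 2 of the 17 were higher in the SI and 1 in the LI (3.7% and 4.4% of all genes). None of 15 G2/M genes was called in any of the 3 fits. Mki67, the proliferation antigen, had 26972, 30302 and 19760.0 in the SI and 28533, 30820.5 and 26746 in the LI, a log2 fold change of -0.23 ± 0.23 (adjusted p = 0.791). Top2a, which untangles replicated DNA, had 11343, 13662 and 6645 against 9745, 10817 and 9558 (0.00 ± 0.40, adjusted p = 1). The library labelled SI border replicate 3 was the lowest of the 6 for both genes.

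**Figure D5:**
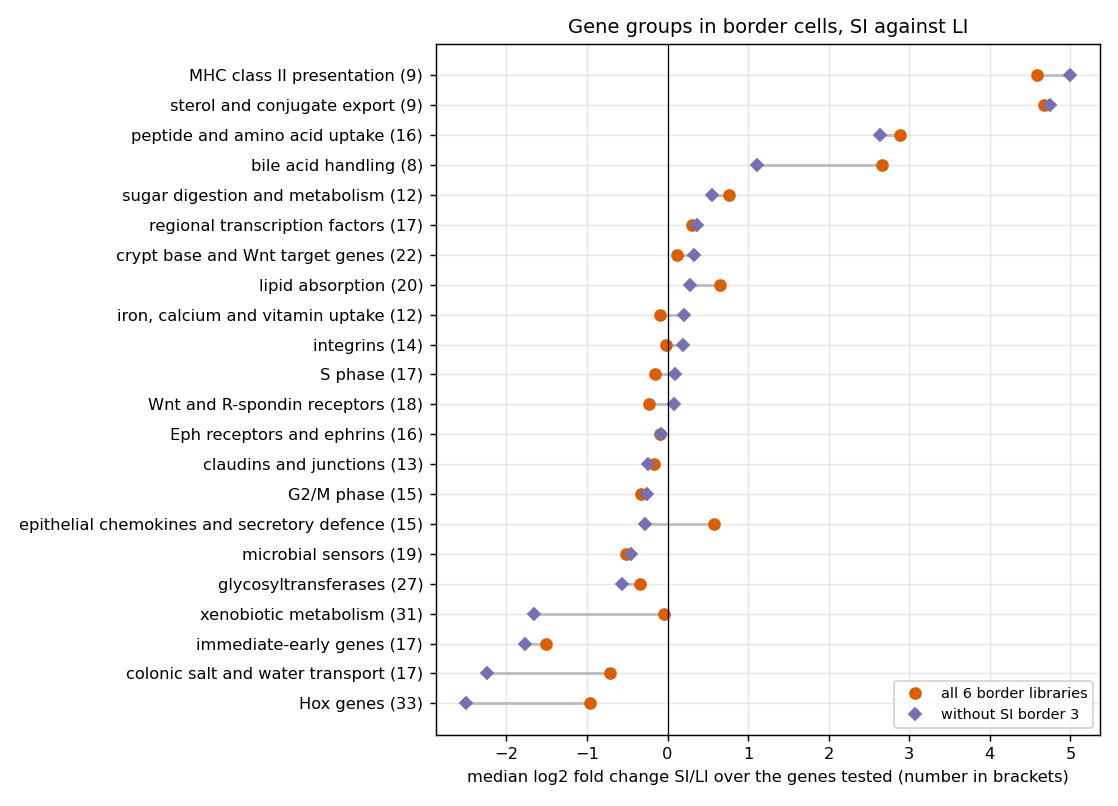
Median log2 fold change (SI over LI border) of each gene group, with the number of genes tested in brackets, with all 6 border libraries (circles) and without SI border replicate 3 (diamonds); genes with a site at 0 enter at the bound that 3 counts allow. Sterol and MHC class II genes lie beyond 4 in both fits, immediate-early genes lie below -1.5, and Hox and colonic transport genes move from -0.96 and -0.71 to -2.50 and -2.23.

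Whether a site difference was larger or smaller in border cells than at the other GFP levels was tested as a difference of differences. With edgeR and all libraries, no gene was called for border against centre cells or for border against row >3 cells, with 708 and 757 genes at an unadjusted p under 0.05. DESeq2 called 2 and 0. The genes with the smallest p included Gfra3, a co-receptor for artemin, whose log2 fold change was -0.26 in border and -4.91 in centre cells (difference 4.65, adjusted p = 1), and Suox, sulfite oxidase, at 0.34 in border and 2.45 in row >3 cells (difference -2.11, adjusted p = 1). Fits chosen after the data were seen called 42 and 30 genes without all SI libraries of replicate 3, Pdgfa among the 30. They called 12 and 46 with DESeq2 without SI border replicate 3. With all libraries, the differences described above were not shown to be particular to border cells. Abcg5, for example, had log2 fold changes of 7.68 in centre and 8.58 in row >3 cells (adjusted p = 9.4e-10 and 5.5e-11), Ccl25 of 2.92 and 3.53, and Gata4 was called at both levels (adjusted p = 3.8e-05 and 2.4e-06). Of the 308 genes higher in SI border cells, 167 were also called, in either direction, in centre and 243 in row >3 cells. Of the 160 genes higher in LI border cells, 67 and 75 were. Over all 26717 genes tested, 532 were called in centre and 1092 in row >3 cells. The border, centre and row >3 values came from the same fit, with the SI libraries of replicate 3 in it.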

How the data were processed

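Lgr5+ cells were sorted by GFP from SI and LI crypts, and RNA was read in 18 libraries, of which the 6 border libraries are described. The authors demultiplexed the reads with bcl2fastq, trimmed them with Skewer and mapped them with STAR to mm10, and deposited raw counts per gene, of which 43346 are listed. Their second deposited table holds normalised counts, a signal equal to the count divided by 1 DESeq2 size factor per library (largest relative deviation 5.33e-15), which is used for levels. Which annotation release was used, and whether reads were counted by strand, is not given in the sources used here. Positions are from GENCODE M21 (42462 of the identifiers).

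The raw counts were tested with edgeR 4.0.16 in R 4.3.3: TMM factors, the 26717 genes with a mean count above 0, glmQLFit (robust) over all 6 groups of 3 libraries (12 residual degrees of freedom), glmQLFTest, and Benjamini-Hochberg adjustment over all genes, called under 0.05. Fold changes are SI over LI on the log2 scale, with SE from the F statistic. Folds against a site at 0 use a floor of 3 counts over its libraries, and ratios against 1 to 3 counts carry an exact binomial interval. DESeq2 1.42.0, other filters and scalings, the replicate number as a block and left-out libraries were alternatives. The procedure was tested on simulated data. Depth was 8312093 to 25788950 counts per border library, so genes of few counts are imprecise.

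Genes were named by rule: the 12 per direction with the smallest adjusted p whose SI and LI libraries do not overlap, the 8 per direction called only without SI border replicate 3, the 5 per direction with the smallest p in each test between GFP levels, and members of the lists. Model names such as Gm genes were left out. The members, lists and rule were chosen with earlier results of these data known, and nothing here is independent support of them. Some list members are not reported here.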

Additional observations from a re-analysis of the deposited data

Results flagged for a closer look

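With all SI libraries of replicate 3 left out, which was chosen after their values were seen, 42 of 26181 genes tested (0.16%) showed a site difference in border cells unlike that in centre cells (edgeR, adjusted p under 0.05), all 42 shifted towards the SI. Among them were 3 of the 10 tuft cell markers, Dclk1 (difference of log2 fold changes 4.11 ± 0.58, adjusted p = 0.0215), Avil (3.31 ± 0.55, adjusted p = 0.0330) and Trpm5 (4.18 ± 0.66, adjusted p = 0.0379), and Spib, a factor of tuft and M cells (3.65 ± 0.54, adjusted p = 0.00355). Tuft markers summed to 686.3 and 794.7 in SI centre replicates 1 and 2, to 19950 and 6215 in SI border replicates 1 and 2, and to 4161 to 6660 in LI border libraries. In LI centre libraries they summed to 2829 to 4759. SI centre replicate 3, which was left out, held 8372. Goblet and deep crypt secretory markers, of which none was called here, moved with them: they summed to 15380 and 28350 in SI centre replicates 1 and 2, to 202300 and 96570 in SI border replicates 1 and 2, and to 229700 to 337200 in LI border libraries. In LI centre libraries they summed to 172700 to 293600. With all libraries none of these genes was called, and the part of tuft and goblet cells in the result was not tested. With only SI border replicate 3 left out, edgeR called 0 genes for border against centre cells. DESeq2 then called 12, of which 3 shifted towards the SI and 9 towards the LI.

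For border against row >3 cells the same fit called 30 genes, 7 shifted towards the SI and 23 towards the LI. Pdgfa was at 1093, 1270.2 and 215 in SI border cells and at 352, 404 and 436 in SI row >3 cells (difference 2.14 ± 0.36, adjusted p = 0.0150), and Suox at 852, 604 and 571 and at 2749, 1708 and 719.6 (difference -2.40 ± 0.33, adjusted p = 0.0023). In the LI, Pdgfa was at 290, 158 and 180 in border cells and at 429, 235 and 247 in row >3 cells. Suox was at 632, 533 and 368 in LI border cells and at 274, 368 and 267 in LI row >3 cells. With all libraries neither was called.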

How the results depend on the processing

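The 468 genes called between SI and LI border cells became 1212 with DESeq2, 267 when the border libraries were fitted alone, and 246 at an unadjusted p under 0.001 with a log2 fold change beyond 2. Leaving out 1 border library gave 138 to 863 genes: 190, 343 and 863 without SI border replicates 1, 2 and 3 and 252, 138 and 141 without those of the LI. Without replicate 3 of both sites 302 were called. Alternatives added after the data were seen gave 2121 genes without all SI libraries of replicate 3, 2176 with DESeq2 without SI border replicate 3 and 982 with a replicate block without it.

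A replicate block over all libraries gave 1141 genes, 615 higher in the SI. Deviations of same-numbered SI and LI libraries from their group means correlated at 0.06268, 0.1078 and 0.07757 over 15998 genes, and at 0.1971, 0.271 and 0.1837 over the 10223 with a mean CPM of 5 or more. Every library correlated best with its own number. That is a hint of pairing from the data, which the labels do not state, and it depends on the genes used. Within 1.5 times of 468 were filterByExpr (678), no filter (321), DESeq2's size factors (471), library size alone (426), the older quasi-likelihood fit (414), the border libraries with a replicate block (336) and a log2 fold change beyond 1 (372).

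The test of border against centre cells called 0 genes, and 2 with DESeq2. Without SI border replicate 3, DESeq2 called 12, 3 towards the SI and 9 towards the LI. Without all SI libraries of replicate 3, edgeR called 42, all towards the SI. Border against row >3 cells gave 0, 46 with DESeq2 without SI border replicate 3 and 30 without all SI libraries of replicate 3. The cause was not tested. Of the 112 named genes called with all libraries or without SI border replicate 3, none changed direction in any fit. As the 112 were chosen for a call in these fits, and the fits share most libraries, an unchanged direction was likely in advance. Of genes not called, Lgr5 was at -0.28 with all libraries and at 0.25 without SI border replicate 3. Without SI border replicate 3, 68 of the 112 kept their side of the threshold and 8 lost the call. The other 36 gained it, which is how they entered the 112. Of 76 genes called with all libraries and named, the fold of 38 moved by over 1.5 times when 1 border library was left out, and that of 13 by over 2 on the log2 scale.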
